A study of Arabidopsis thaliana with 39 samples.

Results

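The genes described here are the 3 ferritins FER1 (AT5G01600), FER3 (AT3G56090) and FER4 (AT2G40300) of Arabidopsis thaliana, taken by gene identifier from a table of 806 genes. The roots came from seedlings of the pWER::GFP epidermis marker line in the Col-0 accession, grown for 7 days on iron-sufficient (+Fe) medium with 0.1 mM FeEDTA and then moved either to fresh +Fe medium or to iron-deficient (-Fe) medium. The -Fe medium contained 300 μM ferrozine, an iron chelator; the labels state that it lacked FeEDTA, whereas the methods of the study mention only the added chelator. GFP-positive protoplasts were sorted from roots at the time of transfer (0 h) and 6, 12, 18, 24, 30 and 36 h later, which gave 7 +Fe and 6 -Fe groups with 3 libraries in each, 39 in all. All 13 groups carry the same transgene, and the WEREWOLF (WER) promoter that drives it is active in the root epidermis and the lateral root cap.

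The table holds 1 RPKM value (a read count divided by the length of the gene and by the size of the library) for each gene and group. It therefore gives no spread among the 3 libraries, and no comparison below has an SD, a p-value or a test of the replicates. The depositors named the table as one of genes differentially expressed in the epidermis; the study describes a longer list of such genes, and some genes of the table pass no threshold in the contrasts below. Every background share therefore refers to these 806 genes and not to all expressed genes. In sorted cells, a lower RPKM through fewer expressing cells and through less RNA in each cell cannot be told apart. Differences are given as the log2 ratio of RPKM + 1, and a value is said to pass the threshold when it is at most -0.75 or at least 0.75, the size limit of the study used without its error rate.

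Plant ferritins are mainly plastid proteins. They assemble into hollow shells and hold iron in a form that cannot take part in the reactions that generate reactive oxygen. In Arabidopsis, FER1, FER3 and FER4 are the ferritins of vegetative tissues and FER2 is that of the seed; FER2 is not among the 806 genes, so its level is not given. Ferritin transcripts are known to be low when iron is short and to accumulate when iron is in excess. The iron-dependent regulatory sequence (IDRS) described upstream of FER1 is required for its repression at low iron. The transcription factors ILR3 and PYE are known to bind ferritin promoters, and the G-box is a binding sequence of the bHLH family to which they belong. FER1 is also known to be bound by the phosphate starvation regulator PHR1 through a P1BS element.

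The RefSeq annotation of the TAIR10.1 assembly places all 3 genes on the minus strand, each with 8 exons. FER1 occupies chr5:227953-230051 and encodes 255 residues. FER3 occupies chr3:20813904-20816035 and FER4 chr2:16831109-16833294, and each of these encodes 259 residues. The coding sequences of FER3 and FER4 are 79.3% identical, against 68.8% for FER1 and FER3 and 70.5% for FER1 and FER4. The longest run of identical coding bases between FER3 and FER4 is 32, shorter than the 125-base reads. The gene end of FER4 shares 118 exon bases, 9.42% of its exon length, with AT2G40290 on the same strand, so some FER4 reads could have been counted for that gene or the reverse. AT5G01595, on the strand opposite to FER1, shares 0 exon bases with it.

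The 300 bases before the start codon were searched on both strands for the G-box (CACGTG), for the IDRS (CACGAGG followed directly by CCGCCAC) and for P1BS (GNATATNC). Each of the 3 ferritins had a G-box, starting 143 bases before the start codon in FER1, 127 in FER3 and 149 in FER4. The same window held a G-box in 6.28% of 27443 genes and in 9.73% of the 802 genes of the table that could be searched. FER2 also had a G-box, 143 bases before its start codon, so the match is not particular to the 3 genes. The 3 stretches are shown because the G-box was the one searched element present in each member. They are written on the gene's strand from the G-box, in capitals, toward the start codon, and lie on the minus strand of TAIR10.1 at chr5:229708-229737, chr3:20816082-20816111 and chr2:16833334-16833363.
FER1 G-box: CACGTGgatctcaatccaacggtgaccaca
FER3 G-box: CACGTGtcaacaatccacagcctcatcatc
FER4 G-box: CACGTGtctctcatccgcagcctcatcatc
The stretches were aligned on the G-box, so only the 24 bases after it can be compared. FER3 and FER4 were identical at 19 of these 24, including the last 13, FER1 and FER4 at 11, and FER1 and FER3 at 7, about as many as unrelated bases would share. The G-box of FER1 lies inside the 5′ UTR of the annotated transcript, which is 457 bases long, whereas those of FER3 and FER4 lie before the annotated start.

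The other searched sequences had full matches in FER1 and not in FER3 or FER4. The IDRS was found in FER1 only, 1 of 27443 genes, and FER1 is the gene in which it was described. The search took the exact letters of that FER1 sequence, so it cannot show whether FER3 and FER4 hold a similar element. P1BS was likewise found in FER1 and in neither FER3 nor FER4. Its share of genes was 5.22%, so most genes lacked a match too. Both elements lie inside the annotated 5′ UTR of FER1, which spans the whole window searched. The annotated 5′ UTRs of FER3 and FER4 are 51 and 80 bases, so their windows lie mostly before the annotated start. Both stretches lie on the minus strand, at chr5:229763-229792 and chr5:229803-229832, with the element in capitals.
FER1 IDRS: ggatgtagCACGAGGCCGCCACacgcccct
FER1 P1BS: taacgtggatcGAATATCCtcacgttcaca
The second part of the IDRS, CCGCCAC, also occurred in FER3, 68 bases before the start codon, without the first part. These matches describe letters in a window and do not show that a factor was bound there.

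At 0 h, FER3 was the highest of the 3 per kilobase at 492 RPKM, FER1 was at 230 RPKM and FER4 at 50.8 RPKM. By RPKM these were the 245th, 398th and 634th highest of the 806 genes. The order FER3, FER1, FER4 was the same in all 13 groups. Whether neighbours in that order differ beyond the spread of libraries could not be assessed from 1 value per group.

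After transfer to fresh +Fe medium, ferritin levels were also lower than at 0 h. No later group was left without transfer, so the transfer and the time since 0 h cannot be told apart. FER1, at 230 RPKM before transfer, was at 75.4, 60.0 and 60.8 RPKM on +Fe at 6, 12 and 18 h, and at 110, 118 and 160 RPKM at 24, 30 and 36 h. FER1 was thus lowest from 6 to 18 h and remained below its 0 h level at every later time. FER3 on +Fe was at 332, 348 and 267 RPKM at 6, 12 and 18 h and at 407, 416 and 394 RPKM at 24, 30 and 36 h, against 492 RPKM at 0 h. FER4 on +Fe was at 30.3, 29.3 and 30.3 RPKM at 6, 12 and 18 h, then at 47.3, 45.2 and 47.4 RPKM, against 50.8 RPKM at 0 h. The 6 to 18 h values of each ferritin were all below its 24 to 36 h values on the same medium.

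On the log2 scale, +Fe FER1 was -1.60, -1.92, -1.90, -1.07, -0.96 and -0.52 against 0 h at the 6 successive times. FER3 passed the threshold on +Fe only at 18 h (-0.88), and FER4 only at 12 h (-0.77). The FER4 call at 12 h was lost with a pseudocount of 10 (-0.63), and FER4 at 6 h passed after centring (-0.76, against -0.72). The number of ferritins past the threshold on +Fe was therefore 1, 2, 2, 1, 1 and 0 of 3, where 23.4%, 19.1%, 13%, 14.9%, 15.5% and 5.33% of all genes of the table were lower by as much. The median of the 3 at 12 h was -0.77, against -0.11 over all 806 genes. FER1 at 18 h was the 8th lowest gene of the table in this contrast.

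On -Fe medium the levels were lower than on +Fe at the same time, except for FER1 at 12 h. FER1 was at 50.8, 65.9, 20.6, 34.8, 20.6 and 24.5 RPKM at 6, 12, 18, 24, 30 and 36 h. FER3 was at 253, 210.2, 158, 141, 111 and 107 RPKM, lower at each successive time from 0 h on, an order that 7 of the 806 genes (0.868%) had. FER4 was at 20.6, 19.2, 12.2, 12.8, 8.41 and 4.84 RPKM, with 24 h slightly above 18 h. FER1 was thus at nearly the same low level at 18 and 30 h, whereas FER3 and FER4 were lowest at the last time sampled. By 36 h FER4 was among the genes of lowest level, 791st of 806.

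**Figure D1:**
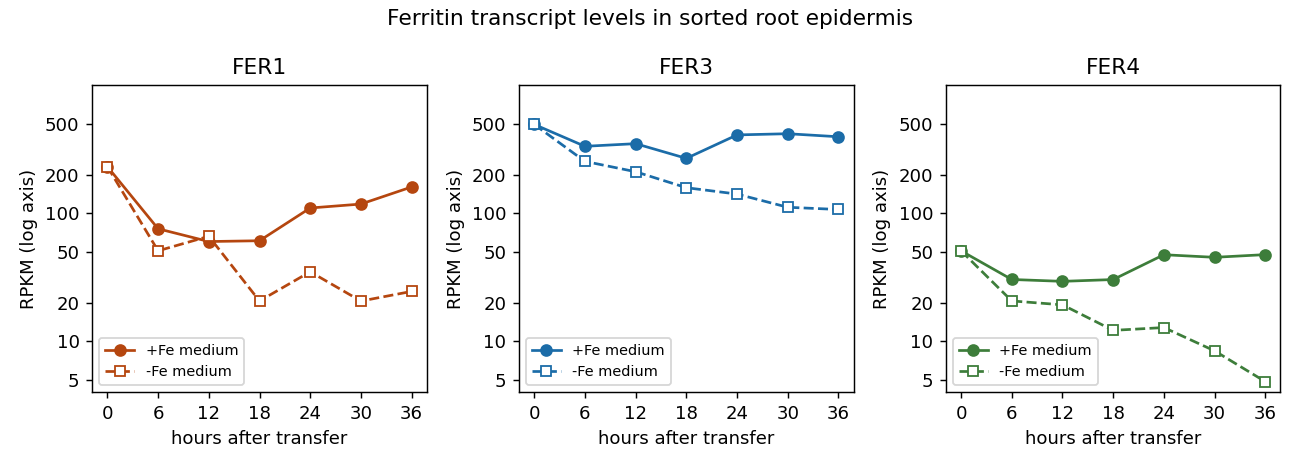
RPKM (log axis, the same in each panel) of FER1, FER3 and FER4 against hours after transfer, with filled circles for +Fe and open squares for -Fe medium and 1 deposited value per point, without error bars. The +Fe courses are lowest between 6 and 18 h, and the -Fe courses lie below them except for FER1 at 12 h (65.9 against 60.0 RPKM).

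Against the same 0 h group, all 3 ferritins passed the threshold at all 6 times on -Fe. The shares of the 806 genes that were lower by as much were 7.07%, 6.08%, 10.3%, 12.2%, 17.7% and 12.7% at the successive times, and 11 genes (1.36%) were so at all 6. After centring on group medians, 50 rather than 98 genes were lower by as much at 24 h and 79 rather than 143 at 30 h. FER1 gave -2.16, -1.79, -3.42, -2.69, -3.42 and -3.18, and had the lowest ratio of any gene in the table from 18 h on. FER3 gave -0.95, -1.22, -1.63, -1.80, -2.14 and -2.19. FER4 gave -1.26, -1.36, -1.98, -1.91, -2.46 and -3.15, the last of which was -2.03 with a pseudocount of 10. By 36 h the RPKM of FER4 was 9.54% of its 0 h value and that of FER3 was 21.7%.

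The comparison of -Fe with +Fe sets the media side by side at the same time after transfer. It shares its -Fe values with the comparison above, so the contrasts are not independent. At 6 h the ratios were -0.56 for FER1, -0.39 for FER3 and -0.53 for FER4, and none passed the threshold, where 23.3% of all genes were lower by as much. At 12 h none passed either, beside 23.6% of all genes; FER3 gave -0.73 and FER4 -0.58, while FER1 was slightly higher on -Fe (0.13).

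From 18 h on, all 3 passed the threshold at every time. Of all genes, 11.4, 30.1, 26.2 and 13.8% were lower by as much at 18, 24, 30 and 36 h. FER1 gave -1.52, -1.63, -2.46 and -2.66 at these times, FER3 gave -0.76, -1.53, -1.90 and -1.88, and FER4 gave -1.25, -1.81, -2.29 and -3.05. FER3 at 18 h lay just past the threshold, at -0.72 with a pseudocount of 10 and at -0.70 once the groups were centred on their medians. At 36 h FER4 had the lowest ratio of all 806 genes, FER1 the 4th lowest and FER3 the 18th lowest. With a pseudocount of 10, which weighs most on low levels such as the 4.84 RPKM of FER4, the ratios at 36 h were -1.95 for FER4, -2.30 for FER1 and -1.79 for FER3, so FER4 was then not the lowest. The median of the 3 at 36 h was -2.66, whereas that of all genes was -0.02.

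**Figure D2:**
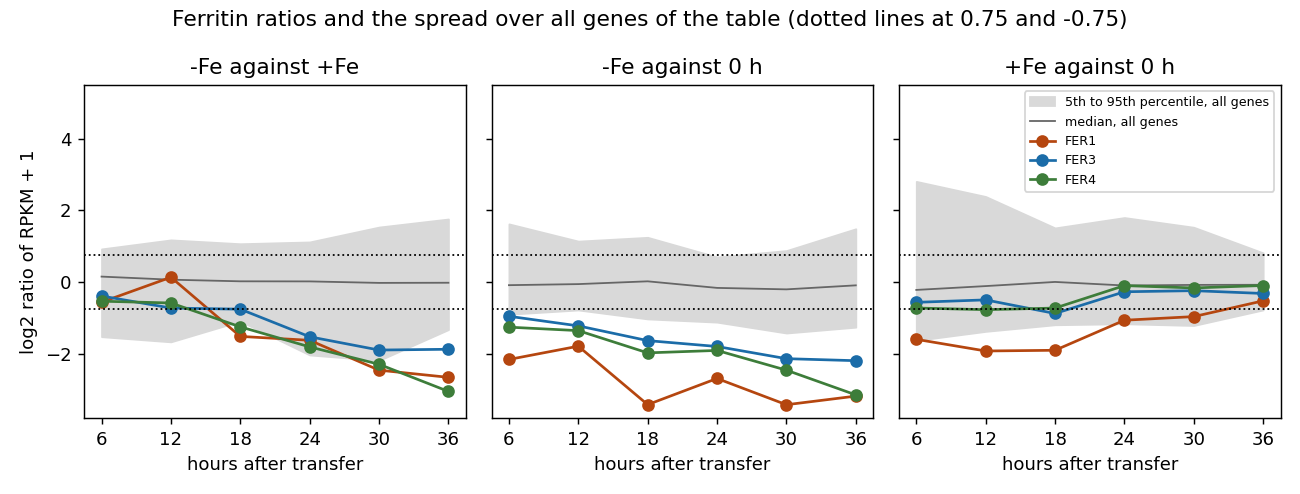
Log2 ratio of RPKM + 1 of each ferritin against hours after transfer, for the 3 contrasts, with dotted lines at the thresholds of 0.75 and -0.75, a grey line for the median and a shaded band from the 5th to the 95th percentile of the 806 genes. In the contrast of -Fe with +Fe the 3 ferritins are above the line at 6 and 12 h and at or below it from 18 h, reaching -3.05 for FER4 at 36 h.

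In percent of the +Fe level at the same time, FER1 on -Fe was 67.3, 110, 33.9, 31.8, 17.5 and 15.3%. FER3 was 76.3, 60.4, 59.0, 34.5, 26.7 and 27.1%. FER4 was 68.0, 65.6, 40.1, 27.0, 18.6 and 10.2%. All 6 -Fe values were below all 6 later +Fe values for FER3 and FER4, a separation that 29 of the 806 genes (3.6%) had. For FER1 the media overlapped, because its -Fe value at 12 h exceeded its +Fe values at 12 and 18 h.

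The change from 18 to 36 h on each medium differed among the 3 genes. Between these times, FER1 was 1.38 higher on +Fe on the log2 scale and 0.24 higher on -Fe. FER3 was 0.56 higher on +Fe and -0.56 on -Fe. FER4 was 0.63 higher on +Fe and -1.17 on -Fe. For FER1 this depends on the start, because its -Fe value was lower at 18 h (20.6 RPKM) than at 24 h (34.8 RPKM). From 24 h, the successive FER1 steps were 0.10 and 0.44 on +Fe and -0.73 and 0.24 on -Fe. No test of these differences among the genes was possible.

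Ratios of 2 ferritins within a group do not depend on the scale of that group. The log2 ratio of the FER1 to the FER3 RPKM was -1.09 at 0 h and lower in all 12 later groups, between -2.54 and -1.30 on +Fe and between -2.94 and -1.67 on -Fe. FER1 was therefore lower relative to FER3 than at 0 h on either medium, least so on +Fe at 36 h (-1.30). All 12 comparisons share the single 0 h value of each gene, so they are not independent. The FER4 to FER3 ratio was -3.28 at 0 h, between -3.57 and -3.06 on +Fe and between -3.72 and -3.45 on -Fe up to 30 h. It stood at -4.46 on -Fe at 36 h, the only group in which FER4 was that low relative to FER3.

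**Figure D3:**
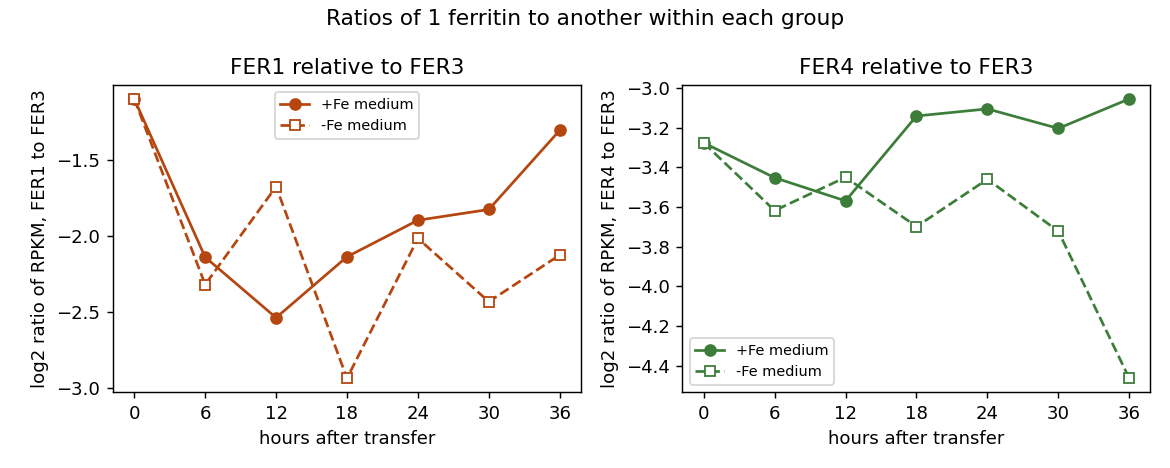
Log2 ratio of the RPKM of FER1 and of FER4 to that of FER3 against hours after transfer, 1 value per group on +Fe and -Fe medium. FER1 to FER3 is highest at 0 h (-1.09), and FER4 to FER3 is lowest on -Fe at 36 h (-4.46).

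Summed over the 3 genes, ferritin RPKM was 773 at 0 h. On +Fe the sum was 438, 437, 358, 564, 579 and 601 RPKM, and on -Fe it was 325, 295, 191, 188, 140.0 and 136 RPKM. The -Fe sum was thus lower than the +Fe sum at each of the 6 times, from 74.2% of it at 6 h to 22.6% at 36 h. Compared with 0 h, the sum at 36 h was 77.8% on +Fe and 17.6% on -Fe.

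FER3 made up most of the sum in every group. Its share was 63.6% at 0 h, 65.5 to 79.6% on +Fe and 71.2 to 82.8% on -Fe. FER1 held 29.8% at 0 h, 13.7 to 26.6% on +Fe and 10.8 to 22.3% on -Fe. The FER4 share was 6.57% at 0 h and 3.56% on -Fe at 36 h, its lowest.

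**Figure D4:**
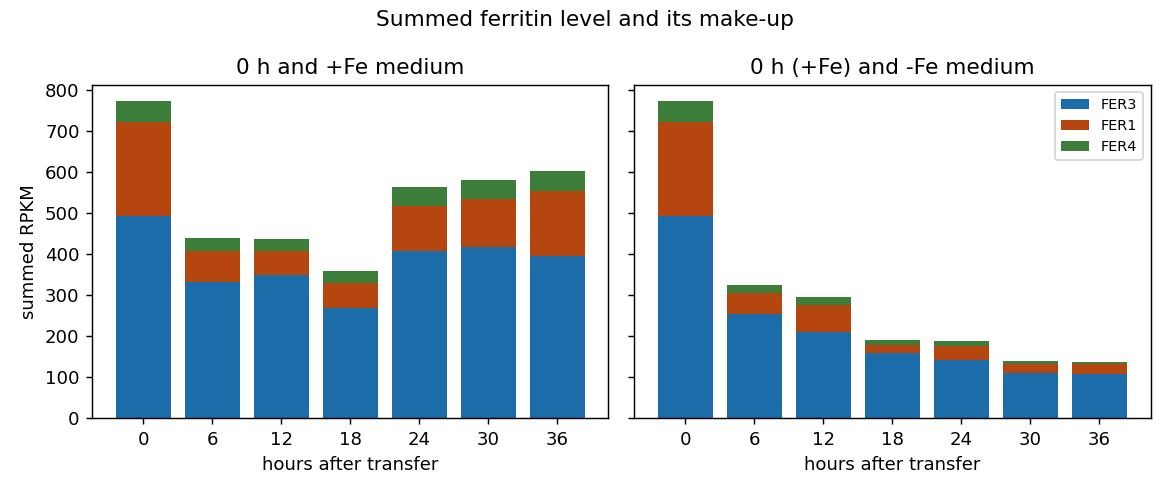
Summed RPKM of FER1, FER3 and FER4 in each of the 13 groups, as stacked bars starting at 0, with the contribution of each gene in its own colour. The sum is 773 RPKM at 0 h, 601 on +Fe and 136 on -Fe at 36 h, and FER3 is the largest portion of every bar.

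The courses of the 3 ferritins over the 13 groups were alike. Pearson's r of log2(RPKM + 1) was 0.976 for FER3 and FER4, 0.925 for FER1 and FER3, and 0.918 for FER1 and FER4. The median r with the other 805 genes was 0.059 for FER1, 0.019 for FER3 and 0.051 for FER4. FER1 was not among the 5 genes of highest r with FER3 or with FER4. The 5th such gene had an r of 0.942 with FER3 and of 0.950 with FER4, so genes other than ferritins were nearer to each than FER1 was. These values are descriptions over 13 groups that share 1 scale per group and, in part, the same time of harvest.

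By the same measure, a few other genes had courses most like those of the ferritins. APX1, a cytosolic ascorbate peroxidase that removes hydrogen peroxide, was among the 5 nearest genes of each, with r of 0.847 to FER1, 0.965 to FER3 and 0.957 to FER4. AT3G49160, annotated as a pyruvate kinase family protein, was near all 3 as well, with r of 0.903, 0.963 and 0.954. AT1G74490, a protein kinase, was near FER1 (0.851) and FER3 (0.966). The remaining nearest genes were AT5G59400, a PGR5-like A protein, for FER3 (0.942), and AT2G36885, a translation initiation factor in RefSeq (0.963), and HEMA1 (0.950) for FER4.

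HEMA1, which encodes the glutamyl-tRNA reductase that commits glutamate to haem and chlorophyll synthesis, differed from the ferritins in its course on +Fe. Its level was 262.5 RPKM at 0 h and between 245 and 275 RPKM on +Fe, with none of the lower values that FER1, FER3 and FER4 had at 6 to 18 h. On -Fe, HEMA1 was at 207, 189, 112, 91.3, 73.2 and 47.2 RPKM. AT2G36885 was at 108 RPKM at 0 h, between 93.0 and 145 RPKM on +Fe, and on -Fe between 87.9 RPKM, its value at 6 h, and 21.4 RPKM, its value at 36 h. APX1 was at 3381 RPKM at 0 h, between 2937 and 4290 RPKM on +Fe and between 1553 and 2733 RPKM on -Fe. These genes thus shared the lower late values on -Fe with the ferritins.

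AT3G49160 was nearer to the ferritins on +Fe too. It was at 16.4 RPKM at 0 h, between 9.97 and 10.6 RPKM on +Fe from 6 to 18 h, and at 15.2, 11.7 and 11.6 RPKM later. On -Fe it was at 8.31 and 7.02 RPKM at 6 and 12 h and between 0.932 and 1.80 RPKM afterwards.

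**Figure D5:**
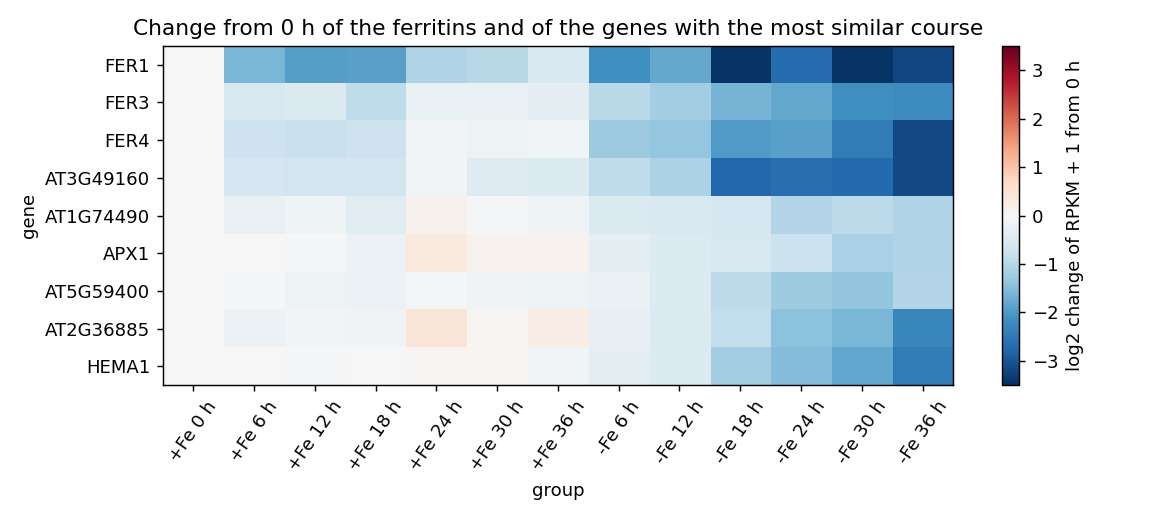
Colour map of the log2 ratio of RPKM + 1 to the 0 h group, blue below 0 and red above 0, with the 13 groups as columns and, as rows, the 3 ferritins and the genes most like them by Pearson's r. On +Fe the ferritins are below 0 at 6 to 18 h (FER1 -1.90 at 18 h), and on -Fe all the genes shown are below 0 at 36 h (FER4 -3.15).

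The listed genes of uptake and mobilisation that were in the table had the opposite direction to the ferritins at 36 h. The list is not confined to iron transport, since it holds the copper transporter COPT2. Of 14 listed uptake and mobilisation genes, 8 were in the table, and all 8 were higher on -Fe than on +Fe by the threshold at 36 h, where 9.8% of all genes were. The depositors named the table as one of differentially expressed genes, so listed genes that did not respond may be absent. Counts of listed genes therefore describe the genes present and are no evidence about the lists. IRT1, the main ferrous iron transporter of the epidermis, gave 7.36 at 36 h, OPT3, an iron transporter of the phloem, gave 4.92, IRT2 gave 4.68 and the copper transporter COPT2 gave 3.87. On +Fe at 36 h IRT2 was at 4.84 RPKM and COPT2 at 3.10 RPKM, so the sizes of their ratios depend on the pseudocount. At 6 h, 4 of the 8 were higher, where 9.18% of all genes were. F6'H1, an enzyme of the synthesis of iron-mobilising coumarins, was lower at 6, 12 and 18 h (-1.05, -1.40 and -0.81) and higher at 36 h (1.65); it is named because it was the exception, after its values were seen. No ferritin passed the threshold at 6 h against this control. With the mean of all +Fe groups, 0 h included, as control, FER1 (-1.18) and FER4 (-0.93) did, and against 0 h all 3 did. No order in time between uptake genes and ferritins is therefore given.

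Of 21 listed regulators of ferritin and iron genes, 7 were in the table, and 5 of these were higher and 0 lower at 36 h, beside 9.8% higher and 13.8% lower of all genes. Here too, listed genes that did not respond may be absent, so the count describes only the 7 present. The Ib bHLH factors bHLH39 and bHLH101, which act with FIT to induce iron uptake, gave 4.69 and 3.53 at 36 h. bHLH38, of the same group, and IMA2, a peptide of the iron deficiency response, were listed at 0 on +Fe at 36 h, so no fold is given; on -Fe they were at 175 and 124 RPKM. The storage and compartment transport list had 2 of 17 genes in the table, the vacuolar iron exporter NRAMP4 (0.88 at 36 h) and the plastid transporter IREG3 (1.09 at 36 h), and these passed the threshold at no earlier time. The median of the 8 uptake genes at 36 h was 4.13, beside -0.02 over all genes.

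The plastid and antioxidant lists were represented by 1 gene each. SUFB, a subunit of the plastid iron-sulphur cluster assembly scaffold, gave -0.42, -0.30, -0.90, -1.71, -1.60 and -1.67 for -Fe against +Fe at the successive times, and so passed the threshold from 18 h as the ferritins did. APX1, of the antioxidant list, gave -0.32, -0.44, -0.35, -1.10, -1.25 and -1.20, and passed it from 24 h. NAC042, a NAC transcription factor from a list of 2 genes that the study names beside ferritin, gave -1.46, -1.49, -1.21, -0.98, -1.85 and -1.44, and passed it at all 6 times, as 6.45% of all genes did. None of 11 listed clock genes was in the table, so time of day could not be followed by them.

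The markers of the sorted tissue could be checked in part only. Of 11 epidermis markers 1 was in the table, GL2, a homeobox gene of non-hair epidermal cells, and of 12 markers of other root cells 1 was, the root cap gene BRN1. GL2 was at 189 RPKM at 0 h, between 154 and 410 RPKM on +Fe and between 98.1 and 188 RPKM on -Fe. BRN1 lay between 1384 and 2057 RPKM over the 13 groups, and its -Fe to +Fe ratios were between -0.08 and 0.14. GL2 was lower on -Fe by the threshold at 6, 12, 24 and 30 h, times that only partly match those of the ferritins, and its part in the ferritin values was not tested. WER, the gene whose promoter marks the sorted cells, was among the listed epidermis markers but not in the table, so its level is not given.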

How the data were processed

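Total RNA of GFP-positive root protoplasts was sequenced as poly(A) libraries, and per the labels and the methods of the study, reads were checked with FastQC, trimmed, and mapped to TAIR10 with TopHat2. The authors obtained RPKM values with RSubread, and the deposited table gives 1 RPKM per gene and group. The way in which each group's 3 libraries became 1 value, the strand setting and the annotation are not given in the sources used here. With 1 value per group the replicate spread is not seen, so no test, interval or SD could be computed. No depths are given: of 203 values below 5 RPKM multiplied by exon length, 21 (10.3%) came within 0.05 of an integer once divided by the lowest such product of their group, where 10% would by chance, so whole reads could not be recovered and depth is unknown.

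Groups came from the labels. Log2 ratios of RPKM + 1 were computed for -Fe against +Fe at the same time and for each medium against 0 h, and read against a threshold of 0.75, the size limit of the study's edgeR analysis, which was not repeated. Alternatives were pseudocounts of 0.1 and 10, centring on medians, scaling to equal sums, a threshold of 1 and a minimum mean RPKM of 1. The mean of all +Fe groups, 0 h included, was a further alternative as control. Genes named are the 3 members and the 5 genes of highest Pearson's r with each member. From each of 10 lists, up to 4 genes were named, those of largest absolute mean -Fe to +Fe log2 ratio over time. F6'H1 and the genes most opposite to the ferritins were added after their values were seen. The members and lists were chosen with earlier results of these data known. Coordinates and sequences are from RefSeq TAIR10.1 and were compared with blastn 2.17.0 and Biopython 1.88. Calculations used pandas 2.3.3, numpy 2.4.6 and scipy 1.17.1, and plots matplotlib 3.10.9, under Python 3.11.15. The ratio computation was tested on simulated data.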

Additional observations from a re-analysis of the deposited data

Results flagged for a closer look

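FER1 at 12 h was the only value of the 18 for the 3 ferritins at which -Fe exceeded +Fe, with a log2 ratio of 0.13 where FER3 gave -0.73 and FER4 -0.58. The difference between the genes was not tested, since the table holds 1 value per group. The FER1 value was 0.14 with a pseudocount of 0.1, 0.12 with a pseudocount of 10, 0.18 after centring on medians and 0.15 after scaling to equal sums. Against the mean of all +Fe groups, 0 h included, it was -0.81.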

How the results depend on the processing

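No paired analysis was possible because the table gives 1 value per gene and group, and for the same reason no replicate could be left out. Of the 18 ferritin values of each contrast, all 18 of -Fe against 0 h passed the threshold with each pseudocount and scaling. For -Fe against +Fe, 12 passed as reported and 11 or 12 with other pseudocounts and scalings; FER3 at 18 h was -0.72 with a pseudocount of 10 and -0.70 after centring. With the mean of all +Fe groups, 0 h included, as control, 17 passed. FER1 at 6 and 12 h then gave -1.18 and -0.81, FER3 at 12 h -0.85, and FER4 at 6 and 12 h -0.93 and -1.02. For +Fe against 0 h, 7 passed as reported and 6 to 8 otherwise; FER4 was -0.76 at 6 h after centring and -0.63 at 12 h with a pseudocount of 10. The values that changed sign were FER1 at 12 h with that control and FER4 on +Fe against 0 h at 36 h (-0.10, and 0.0063 after centring). With a pseudocount of 10, FER4 at 36 h on -Fe was -1.95 rather than -3.05 against +Fe and -2.03 rather than -3.15 against 0 h. With a threshold of 1, the lower calls over all genes and times were 311 rather than 532 for -Fe against 0 h and 428 rather than 736 for +Fe against 0 h. Centring moved ratios of -Fe against 0 h up by 0.27, 0.27 and 0.18 at 24, 30 and 36 h, those of -Fe against +Fe by 0.20 and 0.16 at 24 and 30 h, and those of +Fe against 0 h by 0.11 and 0.10 at 30 and 36 h. It moved the share of lower among all called genes from 71.0 to 46.7%, from 74.9 to 47.9% and from 56.7 to 44.5% for -Fe against 0 h at 24, 30 and 36 h, from 76.4 to 65.2% for -Fe against +Fe at 24 h, and from 46.8 to 36.7% for +Fe against 0 h at 30 h. Of the 5 genes most like each ferritin, Spearman's rho shared 4 for FER1, 4 for FER3 and 3 for FER4, and leaving out 36 h shared 4, 5 and 3. Depth is unknown, so the counting error of the lowest value, FER4 at 4.84 RPKM, cannot be given.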

Other observations

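The genes whose courses ran most opposite to the ferritins over the 13 groups were named after their values were seen. They were bHLH39, a regulator of iron uptake, for FER1 (Pearson's r -0.932), OPT3, the phloem iron transporter, for FER3 (-0.970), and ORG1 for FER4 (-0.979). RBOHD, an NADPH oxidase that produces superoxide at the cell surface, was the second most opposite to FER1 (-0.915) and to FER4 (-0.975). These correlations are descriptions over groups that share 1 scale each.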
